A study of Oryzias latipes with 15 samples.

Results

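Genes of cholesterol and fatty acid synthesis were followed in testis RNA of medaka (Oryzias latipes), a small fish kept as a laboratory model. They were taken by gene symbol alone, in any letter case: the enzymes of the mevalonate and sterol steps, the sterol-sensing regulators, genes whose symbols begin with ldlr or soat, and the enzymes that build, desaturate, elongate and activate fatty acids. The rule used no measured value, and it matched 60 of the 23028 genes in the deposited table, of which 13541 have a symbol. Of the 60 genes, 57 had a mean of at least 10 normalized counts over the 15 libraries and entered the tests. The fatty acid synthase gene fasn2 (ENSORLG00000012785), hmgcll1 (ENSORLG00000009884) and LDLRAD2 (ENSORLG00000028509) did not. fasn2 had 0, 3 and 1 reads at the low dose, 1, 26 and 1 at the high dose, and 0 in each of the 3 control libraries, where a count of 0 allows up to 3 reads. No other symbol of the fatty acid synthase matched the rule, so that step is not described here.

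Cells make cholesterol from acetyl-CoA through mevalonate, squalene and lanosterol, and HMG-CoA reductase is the main control point. When membrane sterol is low, SCAP carries the SREBP transcription factors to the Golgi, where they are activated and turn on genes of both sterol and fatty acid synthesis, while INSIG proteins hold them back when sterol is high. In the testis, cholesterol is the precursor of androgens and long-chain polyunsaturated fatty acids are part of sperm membranes. Growing fish oocytes are known for storing large amounts of lipid.

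The 5 groups had 3 libraries each. Per the labels they were testes of fish exposed to 0.01 mg/L potassium perchlorate (the low dose), to 10 mg/L potassium perchlorate (the high dose), to 10 mg/L with 3 mg/L vitamin C, to 3 mg/L vitamin C alone, and of control fish. Perchlorate is known to keep iodide out of thyroid cells, and vitamin C acts as an antioxidant. The sources used here do not give strain, age, exposure time or the number of fish behind a library, so p-values measure the spread between these samples only.

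Reads recovered from the table numbered 5.48 to 6.19 M per library at the low dose, 3.21 to 12.2 M at the high dose, 10.5 to 21.3 M with the high dose and vitamin C, 7.86 to 15.04 M with vitamin C alone and 7.82 to 13.0 M in the controls. The 60 genes took between 0.235% and 0.334% of the reads of a library. Low-dose libraries stood apart from the rest: on the first principal component, with 49.7% of the variance, replicates 1, 2 and 3 lay at 137, 201 and 42.8, and the other 12 libraries at -13.3 or below. The oocyte markers found, 7 of 10 listed, summed to 91712, 213700 and 18863 normalized counts in low-dose replicates 1, 2 and 3, against 246 to 338 in the controls, and no oocyte marker was at 0 in any library. Sperm and meiosis markers were present in every group, with the 8 sperm marker entries summing to between 3477 and 20488. Of the other markers only ctrl, an exocrine pancreas gene, was at 0, in control replicate 1. Kidney and gut epithelium markers, 5 entries, summed to 2315 to 4315 at the high dose against 122 to 744 in the controls. In bulk tissue, fewer cells of a type and less RNA per cell cannot be told apart.

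Among the 57 tested genes, the low dose gave 18 higher and 12 lower values than the controls (limma, Benjamini-Hochberg adjusted p under 0.05 over all 17778 tested genes), which is 52.6% of them beside 47.8% of all tested genes (24.9% higher and 22.9% lower). The high dose gave 6 higher and 8 lower values than the controls, 24.6% beside 38.7% of all genes (18.3% higher and 20.5% lower). Their median log2 fold changes, -0.01 at the low dose and 0.07 at the high dose, stood beside -0.01 and 0.05 for all tested genes. The changes were those of single enzymes and steps, in both directions at each dose. Both doses share the same 3 control libraries.

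**Figure D1:**
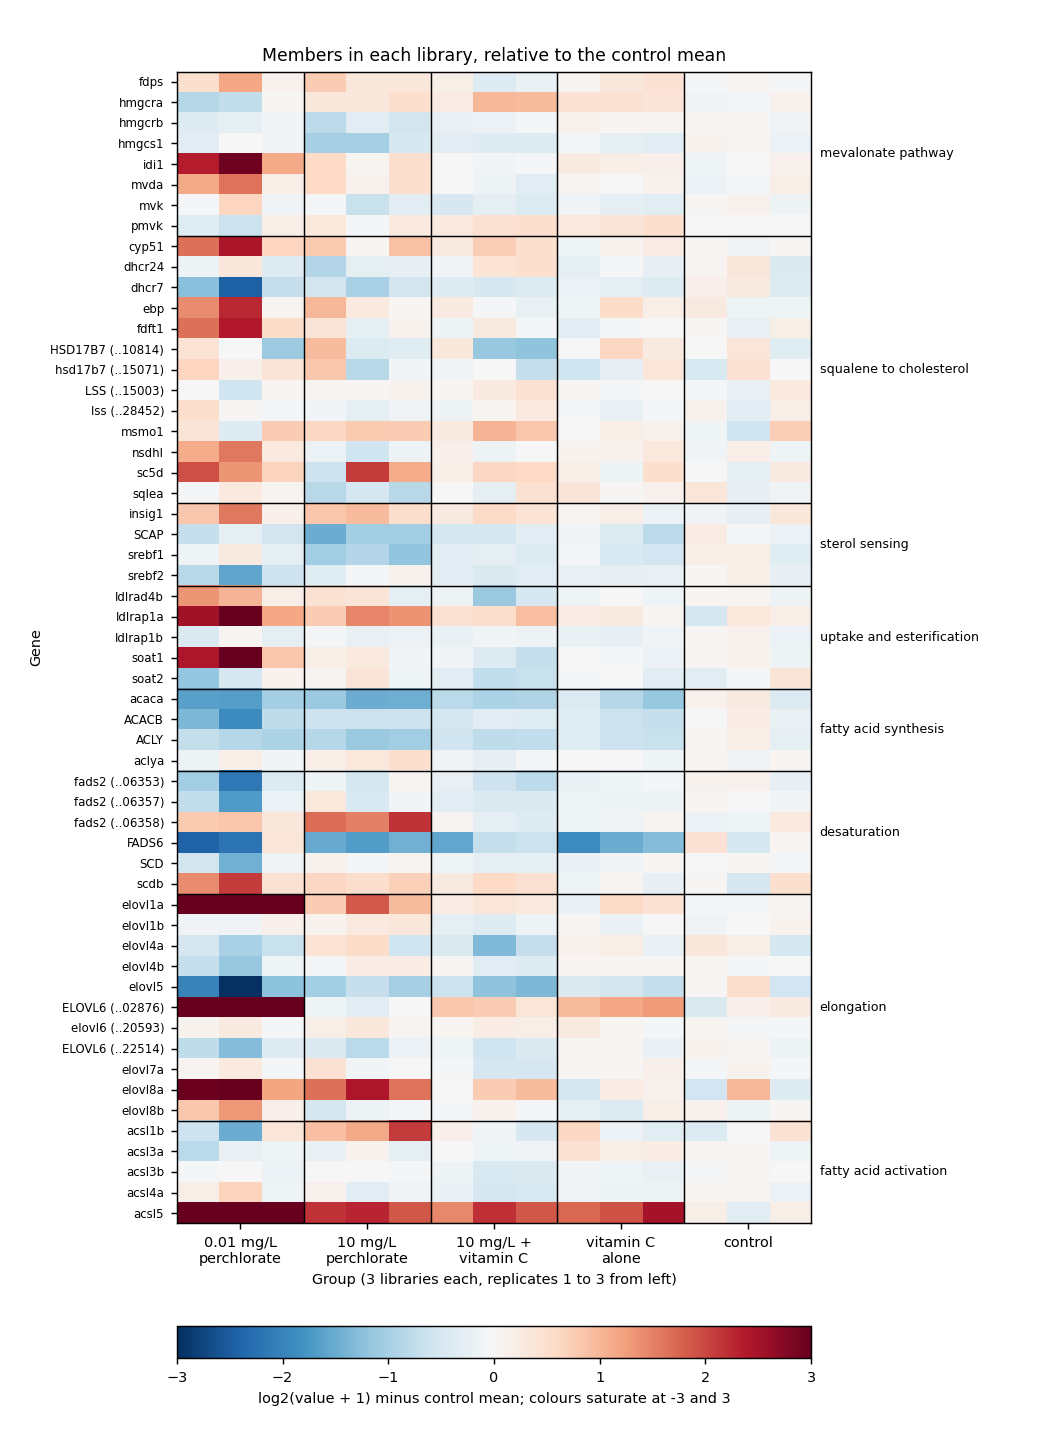
Each row is 1 tested gene, grouped by its step, and each column 1 library; colour is log2(value + 1) minus the control mean of that gene, and saturates at -3 and 3. elovl1a, acsl5 and 1 of the entries named ELOVL6 (ENSORLG00000002876) are at the darkest red in all 3 low-dose libraries, and acaca, ACLY and ACACB are blue in the 6 libraries of the low and high dose.

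The low dose was set against the controls to ask what 0.01 mg/L perchlorate changed. Of the 8 mevalonate pathway genes, 3 rose and 5 did not pass, and of the 13 genes from squalene to cholesterol 4 rose, 1 fell and 8 did not pass. The largest sterol change was in idi1 (ENSORLG00000004991), the isomerase that makes the reactive isoprene unit. It had 874, 1277 and 374 normalized counts in low-dose replicates 1, 2 and 3, against 154, 171 and 185 in the controls. All 3 low-dose libraries lay above every control, with replicate 2 highest and replicate 3 lowest, and the log2 fold change with its standard error was 2.14 ± 0.31 (limma adjusted p = 0.000162).

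The squalene synthase gene fdft1 (ENSORLG00000017362) had 505, 860.3 and 237 normalized counts at the low dose, against 164, 138 and 183 in the controls. cyp51 (ENSORLG00000020002), the lanosterol demethylase, had 233, 407 and 116 at the low dose, against 76.4, 68.5 and 75.0 in the controls. Neither gene's groups overlapped, and both had their highest value in replicate 2 and their lowest low-dose value in replicate 3. The log2 fold changes were 1.54 ± 0.34 for fdft1 (limma adjusted p = 0.00223) and 1.59 ± 0.35 for cyp51 (limma adjusted p = 0.00233). nsdhl (ENSORLG00000006376), a sterol demethylation enzyme, rose by 0.99 ± 0.25, mvda, the mevalonate diphosphate decarboxylase, by 0.99 ± 0.27, fdps, the farnesyl diphosphate synthase, by 0.58 ± 0.23 and ebp, a sterol isomerase, by 1.25 ± 0.43 on the log2 scale. The groups overlapped for mvda and ebp.

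dhcr7 (ENSORLG00000015429), which carries out a last reduction to cholesterol, went the other way. It had 1079, 472 and 1602 normalized counts at the low dose, against 2836, 3076 and 1939 in the controls, which is -1.46 ± 0.31 as a log2 fold change (limma adjusted p = 0.00202). Every low-dose library was below every control, and replicate 2 was lowest. The entry enzymes did not pass: hmgcs1, the HMG-CoA synthase, changed by -0.14 ± 0.18, the HMG-CoA reductase genes hmgcra and hmgcrb by -0.51 ± 0.28 and -0.24 ± 0.15, and sqlea, the squalene epoxidase, by 0.11 ± 0.30. Summed over all 13 genes from squalene to cholesterol, the normalized counts were 4261, 4076 and 4113 at the low dose. In the controls they were 4635, 4703 and 4270. Every low-dose sum lay below every control sum although more of the genes were called up than down. dhcr7 was the largest part of the control sums, with a mean of 2617 normalized counts there against 1051 at the low dose. The lower sums therefore do not describe the other genes.

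**Figure D2:**
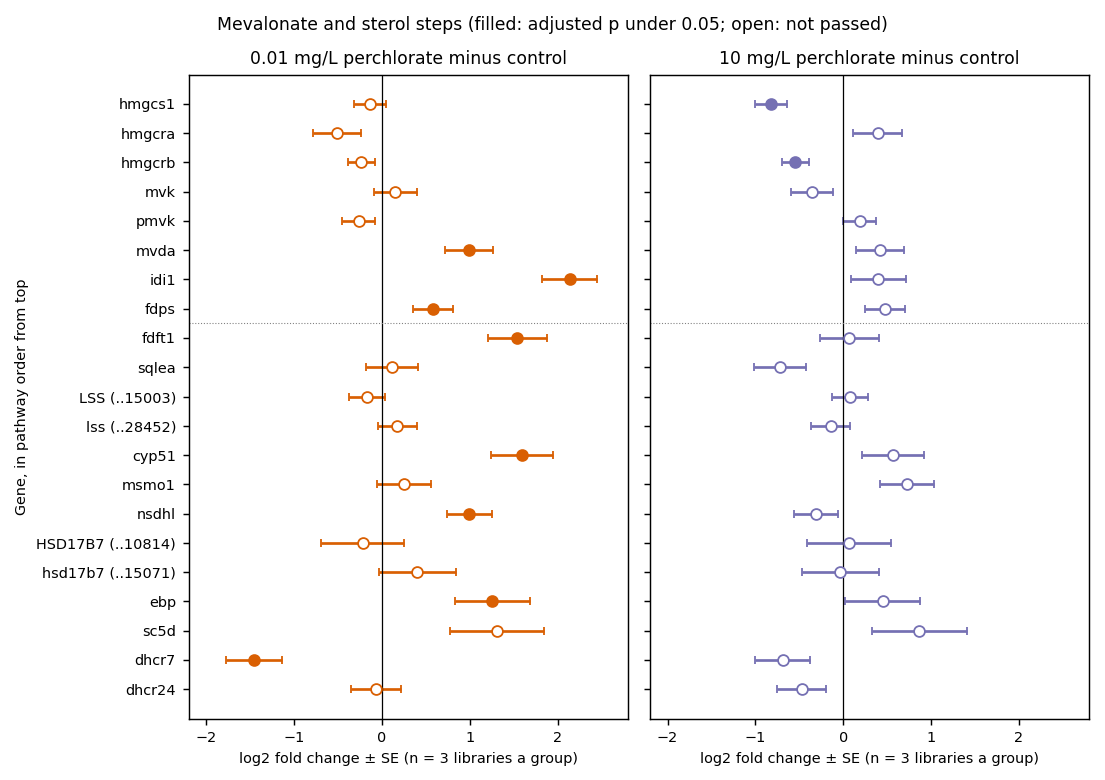
Points give the log2 fold change of each mevalonate and sterol gene at 0.01 mg/L (left) and at 10 mg/L (right) against the same 3 controls, with bars for the standard error (n = 3 libraries a group), and the genes run in pathway order from the top. At the low dose the called genes lie from mvda down and all but dhcr7 are to the right; at the high dose only hmgcs1 and hmgcrb, near the top, are called, both to the left.

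Sterol sensing genes split at the low dose. srebf2 (ENSORLG00000014672), the SREBP gene known from mammals to act mainly on sterol genes, had 192, 115 and 225 normalized counts at the low dose, against 357, 392 and 293 in the controls, a fall of 1.01 on the log2 scale (limma adjusted p = 0.00231) with no overlap between groups. insig1, a brake on SREBP activation, rose by 0.85 ± 0.29, with overlapping groups (limma adjusted p = 0.025). srebf1, the SREBP gene known from mammals to act mainly on fatty acid genes, and SCAP did not pass, at -0.05 ± 0.23 and -0.51 ± 0.22. Of the 5 tested genes whose symbols begin with ldlr or soat, 2 rose. These were grouped by symbol, not by a shown role in uptake, and no symbol of the LDL receptor itself matched the rule. soat1 (ENSORLG00000017233), which joins cholesterol to a fatty acid for storage, had 389, 705 and 128 normalized counts at the low dose against 74.2, 76.0 and 63.7 in the controls (log2 fold change 2.19 ± 0.42, limma adjusted p = 0.00101). ldlrap1a, an adaptor for LDL receptor uptake, rose by 2.26 ± 0.41 and did not overlap. soat2 and ldlrap1b did not pass, at -0.51 ± 0.32 and -0.22 ± 0.15.

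Fatty acid synthesis genes were lower: 3 of the 4 tested fell and 0 rose. acaca (ENSORLG00000009998), the acetyl-CoA carboxylase that makes malonyl-CoA, had 325, 319 and 498 normalized counts at the low dose, against 1111, 1219 and 758 in the controls. ACACB (ENSORLG00000007751), the second carboxylase gene, had 422, 283 and 633 at the low dose, against 1070.0, 1242 and 919 in the controls. ACLY (ENSORLG00000013878), the ATP citrate lyase that supplies cytosolic acetyl-CoA, had 958, 872 and 811 at the low dose, against 1671, 1793 and 1286 in the controls. For each of the 3 genes all low-dose libraries were below all controls, and ACLY differed from most called genes in that its 3 low-dose libraries were close together. The log2 fold changes were -1.43 ± 0.23 for acaca, -1.34 ± 0.23 for ACACB and -0.84 ± 0.16 for ACLY (limma adjusted p = 0.000324, 0.000465 and 0.000957). The other ATP citrate lyase entry, aclya, did not pass at -0.01 ± 0.15, and reads of such copies may be shared.

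Activation and elongation held the largest rises. acsl5 (ENSORLG00000011808), which attaches coenzyme A to long-chain fatty acids, had 7676, 18080.3 and 1774 normalized counts in low-dose replicates 1, 2 and 3, against 20.1, 13.7 and 20.1 in the controls. elovl1a (ENSORLG00000027000), an elongase of very long chains, had 2259, 5399 and 408 at the low dose, against 21.2, 21.2 and 22.8 in the controls. ELOVL6 (ENSORLG00000002876), annotated as an elongase of saturated chains, had 1044, 1701 and 356 at the low dose, against 13.8, 21.2 and 22.8 in the controls. No low-dose library of these 3 genes came near a control, and replicate 2 exceeded replicate 3 several-fold in each. Their log2 fold changes were 8.39 ± 0.55, 6.23 ± 0.62 and 5.44 ± 0.42 in that order (limma adjusted p = 3.94e-08, 3.31e-06 and 1.76e-07).

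Most paralogs of these genes were not called higher. acsl1b, acsl3a, acsl3b and acsl4a did not pass, and elovl1b had 638 ± 66.5 normalized counts at the low dose, against 647 ± 46.3 in the controls. The second entry named ELOVL6 (ENSORLG00000022514) fell by 0.82 on the log2 scale, and the third, elovl6 (ENSORLG00000020593), did not pass at 0.10 ± 0.16. elovl5 (ENSORLG00000009752), which elongates polyunsaturated chains, had 22.5, 9.59 and 39.0 normalized counts at the low dose against 96.5, 136 and 62.3 in the controls, which is -2.14 ± 0.41 as a log2 fold change (limma adjusted p = 0.00099) with no overlap. elovl4b fell by 0.65, elovl8b rose by 0.75 ± 0.28, and elovl8a, with 11, 29 and 4 reads at the low dose and 1, 4 and 2 in the controls, rose by 2.88 ± 0.72 on the log2 scale. The mean of elovl8a over the 15 libraries was 10.3 normalized counts, just above the filter of 10. Its group means were 32.7 at the low dose and 2.04 to 10.8 in the other groups. It thus entered the tests through the low-dose libraries, and its rise there is not independent of the filter.

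All 6 desaturase genes were called at the low dose, 2 up and 4 down, in the fit over 15 libraries. With only the groups compared in the fit none of them was called (limma adjusted p = 0.0646 to 0.168). scdb, a stearoyl-CoA desaturase that makes monounsaturated fatty acids, rose by 1.32 ± 0.32 with overlapping groups, while the other such gene, SCD (ENSORLG00000009222), had 1715, 932 and 2351 normalized counts at the low dose, against 2558, 2573 and 2448 in the controls, and fell by 0.70. The fads2 entries, desaturases of polyunsaturated fatty acids, also split: ENSORLG00000006353 and ENSORLG00000006357 fell by 1.20 and 0.87 and ENSORLG00000006358 rose by 0.65 ± 0.22 on the log2 scale. FADS6 had 10.2, 12 and 76.6 normalized counts at the low dose, against 80.6, 42.4 and 61.6 in the controls, with replicate 3 inside the control range, and its log2 fold change of -1.43 ± 0.56 turned to 0.36 without replicates 1 and 2. FADS6 was also not called by edgeR or DESeq2, and SCD and fads2 (ENSORLG00000006357) were not called by edgeR.

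**Figure D3:**
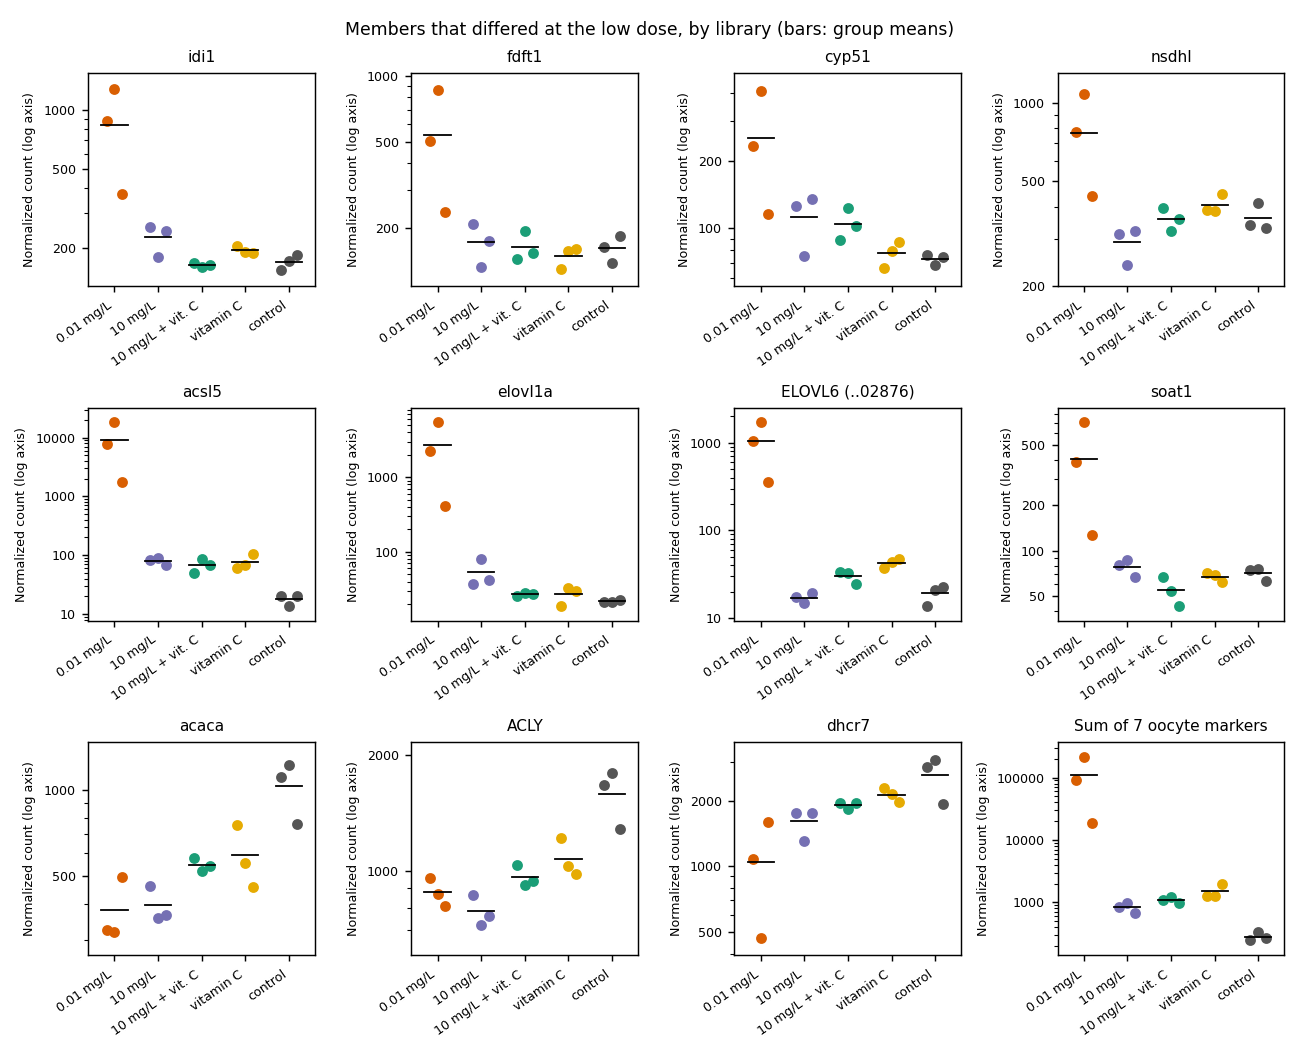
Dots are normalized counts of single libraries on log axes, replicates 1 to 3 from the left in each group, and bars are group means; the last panel is the sum of the 7 oocyte markers. For idi1, fdft1, cyp51, nsdhl, acsl5, elovl1a, ELOVL6 (ENSORLG00000002876) and soat1 the low-dose dots stand in the order of the oocyte sum, replicate 2 highest and replicate 3 lowest, while acaca, ACLY and dhcr7 are below the controls.

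In all 18 genes that rose, the 3 low-dose libraries stood in the order replicate 2, 1, 3, as the oocyte marker sum did. In 10 of the 12 that fell they stood in the reverse order. The first principal component of all tested genes had the same order, at 201, 137 and 42.8 for replicates 2, 1 and 3. The order is thus not particular to these genes, and its share among all called genes was not counted. All 7 oocyte markers rose at the low dose. Of the 7 tested sperm markers 5 fell, and all 5 meiosis markers fell. The sum over all 8 sperm entries was 3477 to 10490 at the low dose, against 13308 to 20488 in the controls. Of 7 Sertoli cell markers 4 fell, with a sum of 7908 to 15664 at the low dose against 21696 to 24037 in the controls. Kidney and gut epithelium markers, 2 of 4 tested higher, summed to 860 to 1512 at the low dose. The part of these cell types in the gene values was not tested. Without low-dose replicates 1 and 2, the log2 fold changes were 6.57 for acsl5, 4.17 for ELOVL6 (ENSORLG00000002876), 4.17 for elovl1a and 1.14 for idi1. They were -1.02 for acaca, -0.95 for ACLY and -0.75 for ACACB. Those of fdft1, cyp51 and nsdhl shrank to 0.56, 0.65 and 0.29, and that of dhcr7 to -0.68. That fit treats the 1 remaining low-dose library as varying like the other groups. Leaving out 1 library at a time ended the calls of insig1, fads2 (ENSORLG00000006358), SCD, fads2 (ENSORLG00000006357), ebp, FADS6, elovl4b, elovl8b and fdps in at least 1 fit (limma adjusted p up to 0.237). Leaving out low-dose replicate 2 ended all 9 of them, control replicate 1 or 2 or low-dose replicate 1 most of them, and control replicate 3 those of FADS6, ebp, elovl4b, elovl8b and fdps. Of the 30 calls 25 had groups that did not overlap, a share that was not worked out for all called genes. The scaling on genes that averaged 500 or more in the controls gave 22 higher and 8 lower, moving the median of all genes by 0.30. Of all 17778 tested genes it gave 6105 higher and 2460 lower. Quantile normalization gave 14 and 14, beside 3472 and 4856 of all tested genes. That scaling ended the calls of fads2 (ENSORLG00000006357), SCD, FADS6 and elovl4b, and quantile normalization those of fads2 (ENSORLG00000006358), insig1, elovl8b and ebp. With only these groups in the fit 12 calls remained, beside 1905 higher and 1345 lower of all tested genes. The desaturases all lost their calls there, as did dhcr7, srebf2, insig1, nsdhl, mvda, ebp and fdps. So did elovl4b, elovl8a, elovl8b and ELOVL6 (ENSORLG00000022514).

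The high dose was set against the controls to ask what 10 mg/L perchlorate changed. Of the 8 mevalonate genes 0 rose and 2 fell, and all 13 genes from squalene to cholesterol did not pass, although the count tests called sc5d, a sterol desaturase, higher (adjusted p = 0.0327 in edgeR and 0.0196 in DESeq2). hmgcs1 (ENSORLG00000012898), the HMG-CoA synthase, had 175, 175 and 248 normalized counts at the high dose, against 378, 365 and 307 in the controls. SCAP (ENSORLG00000015864), the SREBP escort, had 94.8, 131 and 129.7 at the high dose, against 320.3, 257 and 237 in the controls. srebf1 (ENSORLG00000009437) had 63.2, 71.3 and 57.4 at the high dose, against 151, 148 and 102 in the controls. In these 3 genes every high-dose library was below every control. The log2 fold changes were -0.82 ± 0.18, -1.19 ± 0.22 and -1.03 ± 0.23 in that order (limma adjusted p = 0.00244, 0.000731 and 0.00284).

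hmgcrb fell by 0.55 on the log2 scale (limma adjusted p = 0.0107), while its paralog hmgcra had 69.1 ± 4.62 normalized counts at the high dose, against 52.5 ± 4.59 in the controls, and did not pass. insig1 rose by 0.77 ± 0.29 (limma adjusted p = 0.0477), a call lost in 5 of the 6 fits that left out 1 library, all but the fit without control replicate 3, with adjusted p up to 0.164. srebf2 did not pass at -0.10 ± 0.22, nor did idi1 at 0.40 ± 0.31 and dhcr7 at -0.69 ± 0.31. sqlea, with 18.7 ± 2.72 normalized counts at the high dose, against 31.8 ± 7.51 in the controls, missed the threshold in limma (log2 fold change -0.72 ± 0.30, adjusted p = 0.0683) and passed with quantile normalization, at -1.60. ldlrap1a rose by 1.19 ± 0.41, a call lost without control replicate 1, high-dose replicate 2 or high-dose replicate 3 (limma adjusted p up to 0.142).

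Fatty acid synthesis genes fell at this dose too, 3 of the 4 tested with 0 up. acaca had 463, 359 and 367 normalized counts at the high dose against 1111, 1219 and 758 in the controls, which is -1.36 ± 0.23 as a log2 fold change (limma adjusted p = 0.000438). ACLY had 865, 725 and 764 at the high dose against 1671, 1793 and 1286 in the controls, which is -1.0 ± 0.16 as a log2 fold change (limma adjusted p = 0.000297). The high-dose libraries of both genes were close together and below all controls, and both calls held in each fit that left out 1 library. ACACB fell by 0.65, a call that ended in 5 of those 6 fits, all but that without control replicate 3 (limma adjusted p up to 0.133). aclya, the second lyase entry, was at 708 ± 75.5 normalized counts at the high dose, against 559 ± 38.8 in the controls, and did not pass.

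The smallest adjusted p at the high dose belonged to a rise of fads2 (ENSORLG00000006358). It had 506, 449 and 712 normalized counts at the high dose, against 140.0, 143 and 194 in the controls. Every high-dose library was above every control, the log2 fold change was 1.78 ± 0.22 (limma adjusted p = 8.02e-05), and each fit that left out 1 library kept the call. The other entries of that name did not pass: ENSORLG00000006353 had 238 ± 49.4 normalized counts at the high dose, against 269.7 ± 37.5 in the controls, and ENSORLG00000006357 had 633 ± 167 and 651 ± 34.5 in the same order. Reads of near-identical copies may be shared among the 3 entries, since the sources used here do not state how such reads were handled. SCD and scdb did not pass, at 0.04 ± 0.24 and 0.62 ± 0.32, and FADS6 changed by -1.55 ± 0.56, a call lost in each of the 6 fits that left out 1 library (limma adjusted p up to 0.140).

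acsl5 had 83.3, 89.9 and 67.0 normalized counts at the high dose, against 20.1, 13.7 and 20.1 in the controls, which is 2.10 ± 0.55 as a log2 fold change (limma adjusted p = 0.00751) that held in each fit without 1 library. acsl1b (ENSORLG00000008655), another long-chain activating enzyme, had 54.6, 64.9 and 126 at the high dose, against 21.2, 28.7 and 38.9 in the controls, a rise of 1.38 ± 0.46. Replicate 3 was highest, and the call ended without it, without control replicate 1 and without control replicate 2 (limma adjusted p up to 0.124). Of 11 elongases, elovl8a rose by 1.90 ± 0.72 on 3, 24 and 8 reads at the high dose, and its call ended in 5 of 6 such fits, all but that without control replicate 2. elovl1a and ELOVL6 (ENSORLG00000002876) did not pass, at 1.18 ± 0.62 and -0.14 ± 0.42.

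Of these 14 calls none had overlapping groups, and the share over all called genes was not worked out here either. The count was 8 without control replicate 1, 9 without high-dose replicate 2 and 8 without high-dose replicate 3. Of all tested genes those fits called 2204 higher and 2606 lower, 2100 and 2651, and 2730 and 3254, in that order. The fit over 15 libraries called 3248 higher and 3638 lower. The balance of rises and falls depended on the scaling. Setting the median ratio of genes that averaged 500 or more in the controls to 1 moved the median of all genes by 0.37. It gave 16 higher and 5 lower, beside 5626 higher and 1836 lower of all 17778 tested genes. acaca, ACLY, SCAP, srebf1 and hmgcs1 were still lower there, while hmgcrb, ACACB and FADS6 were not called and 10 further genes, hmgcra, pmvk, mvda, fdps, msmo1, aclya, scdb, elovl1b, elovl6 (ENSORLG00000020593) and elovl7a, were called higher. Quantile normalization gave 9 higher and 10 lower, beside 2874 and 3308 of all tested genes. It ended the calls of hmgcrb, ACACB, acsl1b, ldlrap1a and elovl8a, and of its 19 calls only 9 were among the 14 above. Kidney and gut epithelium markers also moved with this comparison: all 4 tested rose. Oocyte markers, 3 of 7 risen, summed to 673 to 991 at the high dose and 246 to 338 in the controls. Meiosis markers fell in 3 of 5, Sertoli cell markers in 2 of 7 and sperm markers in 1 of 7. Exocrine pancreas markers, 4 of 4 risen, summed to 452 to 553 at the high dose and 80.6 to 194 in the controls. Liver markers, 4 of 6 risen, summed to 803 to 2110 at the high dose and 689 to 923 in the controls. Their part in the gene values was not tested.

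A direct comparison of the doses showed where they differed. Of the 57 genes, the high dose had 10 above and 15 below the low dose, 43.9% beside 48.4% of all tested genes (22.4% higher and 26.1% lower). The falls held the elongation and activation genes of the low-dose rise: on the log2 scale the difference was -6.28 ± 0.55 for acsl5, -5.58 ± 0.42 for ELOVL6 (ENSORLG00000002876) and -5.06 ± 0.62 for elovl1a. idi1 (-1.74 ± 0.31), fdft1 (-1.47 ± 0.34), nsdhl (-1.30 ± 0.25), cyp51 (-1.02 ± 0.35) and soat1 (-2.06 ± 0.42) were lower at the high dose as well. hmgcs1 (-0.68 ± 0.18), sqlea (-0.83 ± 0.30), SCAP (-0.68 ± 0.22) and srebf1 (-0.98 ± 0.23) were also lower at the high dose. Higher at the high dose were acsl1b (1.96 ± 0.46), fads2 (ENSORLG00000006358; 1.13 ± 0.22), srebf2 (0.91 ± 0.22), hmgcra (0.90 ± 0.28), SCD (0.74 ± 0.24) and elovl5 (1.24 ± 0.41). Among the remaining calls, elovl8b and ldlrap1a were lower and ACACB, elovl4b and fads2 (ENSORLG00000006353 and ENSORLG00000006357) higher at the high dose. acaca and ACLY did not pass between the doses, at 0.08 ± 0.23 and -0.17 ± 0.16. Without low-dose replicates 1 and 2 the difference shrank to -0.08 for cyp51, -0.49 for fdft1, -0.60 for nsdhl, -0.71 for soat1 and 0.35 for elovl5. Those of SCAP and sqlea, at -0.64 and -0.80, moved little. The count of called genes was 13 without low-dose replicate 2, beside 2551 higher and 3403 lower of all tested genes. It was 38 without low-dose replicate 3, beside 5688 higher and 5878 lower of all tested genes. With only these groups in the fit it was 7, beside 895 higher and 1673 lower of all tested genes. Quantile normalization gave 17 higher and 12 lower, beside 4539 and 3579 of all 17778 tested genes. The scaling on genes that averaged 500 or more in the controls gave 13 and 13, beside 4544 and 3963 of all tested genes. Leaving out 1 library ended the call of ldlrap1a in 5 of 6 fits, those of cyp51, sqlea, ACACB and fads2 (ENSORLG00000006357) in 3, those of hmgcra, SCD, elovl5, SCAP and fads2 (ENSORLG00000006353) in 2, and those of elovl4b and elovl8b in 1 (limma adjusted p up to 0.221). Each of these 12 calls was lost without low-dose replicate 2. Over these fits cyp51 ranged from -1.49 to -0.59 and elovl5 from 0.73 to 1.69 on the log2 scale. Oocyte markers, all 7 lower at the high dose, summed to 673 to 991 there. All 4 exocrine pancreas, 3 of 6 liver, 2 of 4 kidney and gut and 2 of 3 steroid cell markers were higher. Of 7 sperm markers 3 were higher and 1 lower, and of 7 Sertoli cell markers 3 were higher and 1 lower. Of 5 meiosis markers 1 was higher. Their part in the gene values was not tested.

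Vitamin C was added to the high dose to ask whether it altered the response. Against the high dose alone, 1 of the 57 genes was higher and 3 were lower, 7.02% beside 10.4% of all tested genes (7.74% higher and 2.64% lower). fads2 (ENSORLG00000006358) had 167, 131 and 120.0 normalized counts in replicates 1, 2 and 3 of the high dose with vitamin C, against 506, 449 and 712 with the high dose alone. The groups were far apart, the log2 fold change was -1.97 ± 0.22 (limma adjusted p = 0.000201), and the call held in each fit without 1 library and with the replicate number as a block. Against the controls this gene did not pass in the high dose with vitamin C (-0.19 ± 0.22) or in vitamin C alone (-0.06 ± 0.22).

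elovl1b (ENSORLG00000016538) had 529.7, 491 and 579 normalized counts with the high dose and vitamin C, against 692, 788 and 817 with the high dose alone. SCAP had 186, 187 and 211 with the high dose and vitamin C, against 94.8, 131 and 129.7 with the high dose alone. acsl1b had 31.9, 27.0 and 20.4 with the high dose and vitamin C, against 54.6, 64.9 and 126 with the high dose alone. None of the 3 had overlapping groups: elovl1b and acsl1b were lower and SCAP was higher with vitamin C. The log2 fold changes were -0.52 ± 0.15, 0.72 ± 0.22 and -1.52 ± 0.46 in that order (limma adjusted p = 0.0361, 0.0449 and 0.0468). With the replicate number as a block, elovl1b kept its call and SCAP (limma adjusted p = 0.0633) and acsl1b (0.0516) did not, so 2 calls remained. Leaving out 1 library gave 3 calls without high-dose replicate 1, and in each of the other 5 fits the call of fads2 was the only 1 of the 4 that remained. SCAP lost its call in each of the 6 such fits, and elovl1b and acsl1b in all but the fit without high-dose replicate 1 (limma adjusted p up to 0.166, 0.148 and 0.175 for SCAP, elovl1b and acsl1b).

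Against the controls, 0 genes were higher and 2 lower with the high dose and vitamin C, 3.51% beside 3.62% of all tested genes (2.36% higher and 1.26% lower). ACLY had 1035, 919.7 and 941 normalized counts with the high dose and vitamin C, against 1671, 1793 and 1286 in the controls. acaca had 579, 519.8 and 541 with the high dose and vitamin C, against 1111, 1219 and 758 in the controls. Neither gene's groups overlapped, and the log2 fold changes were -0.70 ± 0.16 for ACLY and -0.88 ± 0.23 for acaca (limma adjusted p = 0.0267 and 0.0447). The call of ACLY was lost without control replicate 1 or 2 or without replicate 2 or 3 of the high dose with vitamin C, and that of acaca in each such fit but that without control replicate 3, with adjusted p up to 0.164 and 0.223. Of these fits, that without control replicate 3 gave 3 calls and that without replicate 1 of the high dose with vitamin C gave 1. The count was 0 with quantile normalization, beside 235 higher and 108 lower of all tested genes. Both calls also ended with the scaling on genes that averaged 500 or more in the controls (limma adjusted p = 0.0723 for acaca and 0.0672 for ACLY), where the only gene called was pmvk, the phosphomevalonate kinase, as higher. Of the liver markers 4 of 6 were higher in this comparison, with a sum of 1849 to 6025 in the high dose with vitamin C against 689 to 923 in the controls. Oocyte markers, 4 of 7 higher, summed to 972 to 1223 in the high dose with vitamin C against 246 to 338 in the controls, and 2 of 4 exocrine pancreas markers were higher. Their part in the gene values was not tested.

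**Figure D4:**
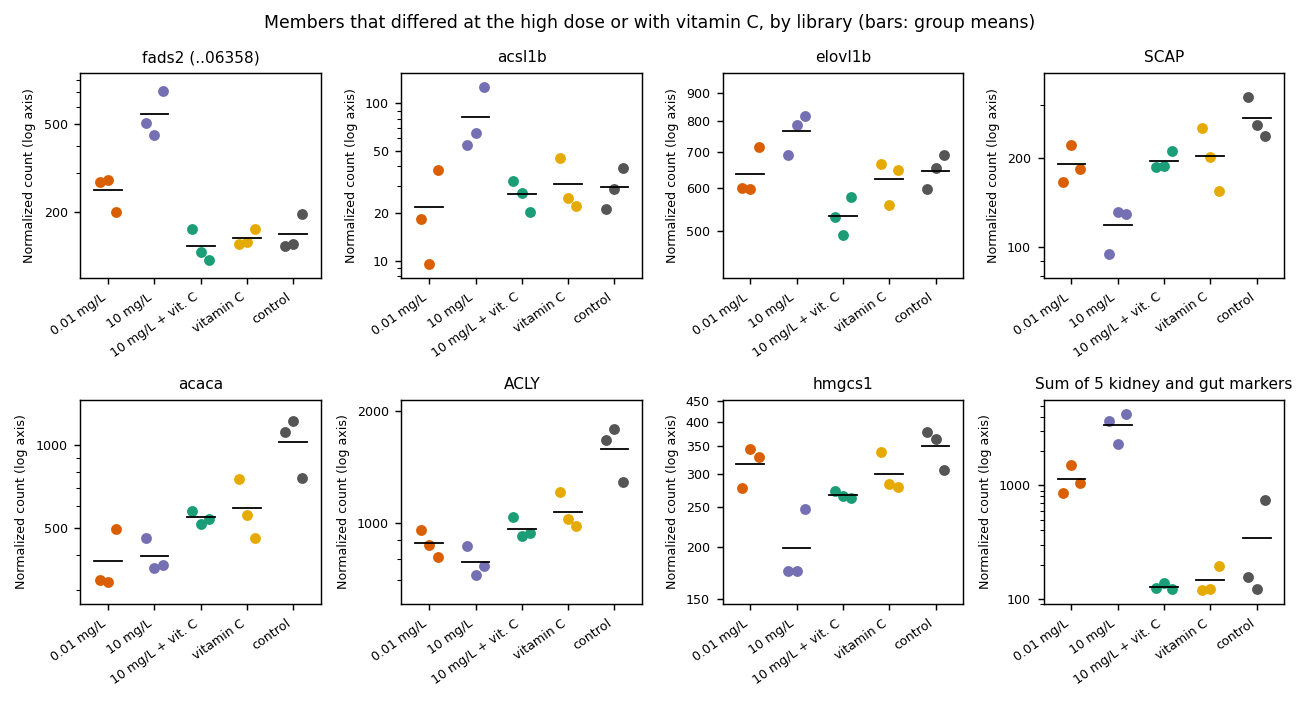
Dots are normalized counts of single libraries on log axes, replicates 1 to 3 from the left in each group, and bars are group means; the last panel is the sum of 5 kidney and gut epithelium entries. fads2 (ENSORLG00000006358) stands at 449 to 712 in the high-dose libraries and at 120 to 167 with the high dose and vitamin C, while acaca and ACLY are highest in the controls.

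The kidney and gut sum was also highest at the high dose, with 122 to 137 in the high dose with vitamin C against 2315 to 4315 in the high dose alone, where 3 of 4 tested markers were lower with vitamin C. It stood at 119 to 195 in vitamin C alone. Liver markers, 3 of 6 higher with vitamin C, summed to 1849 to 6025 in the high dose with vitamin C against 803 to 2110 in the high dose alone. Of the exocrine pancreas and the steroid cell markers 1 each was lower with vitamin C, and 1 oocyte marker was higher. Their part in the gene values was not tested.

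Vitamin C alone was compared with the controls for its own effect. Of the 57 genes 0 passed in limma, beside 0.405% of all tested genes. Of the 57, 6 had an unadjusted p under 0.05, a count that was not made over all tested genes. The 6 therefore cannot be set against a background. Among the count tests edgeR called 0 of the 57 and DESeq2 2 (acsl5 and ACLY). Of all 17778 tested genes edgeR called 48 higher and 18 lower. DESeq2 called 134 of them higher, which was 52.1% of its calls, and the rest lower. acsl5 had 60.7, 68.9 and 104 normalized counts with vitamin C alone, against 20.1, 13.7 and 20.1 in the controls, without overlap (log2 fold change 2.04 ± 0.55, limma adjusted p = 0.168). acaca had 754, 557 and 460.1 with vitamin C alone, against 1111, 1219 and 758 in the controls, so that vitamin C replicate 1 came close to the lowest control (log2 fold change -0.80 ± 0.23, limma adjusted p = 0.216). ACLY had 1212, 1027 and 979 with vitamin C alone, against 1671, 1793 and 1286 in the controls (log2 fold change -0.55 ± 0.16, limma adjusted p = 0.216). All 9 of these vitamin C values lay outside the control range of their gene, yet none of the 3 genes passed in the limma fit over all 15 libraries. With only these groups in the fit, 5 of the 57 genes were called, 2 higher and 3 lower. That fit called 394 higher and 277 lower of all tested genes. Of the oocyte markers 4 of 7 were higher with vitamin C alone, with a sum of 1257 to 1994 there against 246 to 338 in the controls. Their part in the gene values was not tested.

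Whether the change with the high dose differed in the presence of vitamin C was tested as an interaction, the difference between the high-dose change on vitamin C and the high-dose change without it. Of the 57 genes 3 were positive and 1 negative, 7.02% beside 8.08% of all tested genes (5.6% positive and 2.47% negative). fads2 (ENSORLG00000006358) was negative, at -1.92 ± 0.31 (limma adjusted p = 0.00893). acaca (1.27 ± 0.32), SCAP (1.16 ± 0.31) and ACLY (0.85 ± 0.22) were positive. srebf1 missed the threshold at 1.05 ± 0.33 (limma adjusted p = 0.0581). Leaving out 1 library gave 1 to 5 calls: that of fads2 held in all 12 fits, and the others were each lost in 9 of 12, with only 1 call left without control replicate 1 or 2, high-dose replicate 2, vitamin C replicate 2 or 3, or any library of the high dose with vitamin C, and 2 without high-dose replicate 3. Quantile normalization gave 3 positive and 3 negative, beside 937 and 592 of all 17778 tested genes. The scaling on genes that averaged 500 or more in the controls moved the median of all genes by -0.25 here. It gave 1 and 2, beside 525 and 686 of all tested genes. The calls of acaca and ACLY ended with quantile normalization, and those of ACLY and SCAP with that scaling.

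Neighbouring genes of lipid metabolism were read from 2 lists. Of 19 tested genes of cholesterol handling, the low dose raised 5 and lowered 5, and the high dose raised 2 and lowered 4. Of 42 tested genes of fatty acid use and storage, the low dose raised 12 and lowered 3, and the high dose raised 10 and lowered 7. Of all tested genes the low dose raised 24.9% and lowered 22.9%, and the high dose raised 18.3% and lowered 20.5%. At the low dose, dgat2, which makes storage triglycerides, had 2204 ± 2063 normalized counts against 7.86 ± 3.66 in the controls (SD, n = 3 each; log2 fold change 7.40 ± 0.64), and dgat1a, another enzyme of that step, rose by 3.37 ± 0.55. npc2.1, a carrier of cholesterol out of lysosomes, rose by 2.48 ± 0.41, and abcg8, a subunit of a sterol exporter, by 3.07 ± 0.53. scarb1, a receptor for lipoprotein cholesterol, fell by 1.43 at the low dose and by 1.17 at the high dose on the log2 scale. Without low-dose replicates 1 and 2, dgat2 and npc2.1 were still called higher, while abcg8, dgat1a and scarb1 lost their low-dose calls (limma adjusted p = 0.0661, 0.0617 and 0.0752).

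At the high dose, acss2, which makes acetyl-CoA from acetate, had 135 ± 27.9 normalized counts against 343 ± 41.1 in the controls (SD, n = 3 each; log2 fold change -1.36 ± 0.20, limma adjusted p = 0.000182). lbr, a sterol reductase of the nuclear envelope, fell by 1.31, hadhab, a subunit of mitochondrial fatty acid oxidation, by 0.97 and tecrb, which completes chain elongation, by 0.95 on the log2 scale. GPAM, the first enzyme of glycerolipid synthesis, rose by 1.09 ± 0.19. With vitamin C added to the high dose, acss2 (0.83 ± 0.20), lbr (0.73 ± 0.19) and hadhab (0.68 ± 0.15) were higher and GPAM (-0.67 ± 0.19) lower than with the high dose alone. In fits without 1 library, lbr and GPAM lost that call in 5 of 6, acss2 in 3 and hadhab in 1, that without high-dose replicate 2. The interaction was positive for acss2 (1.11 ± 0.28), lbr (1.04 ± 0.27) and hadhab (0.76 ± 0.21), calls lost in 8, 9 and 10 of the 12 fits without 1 library in that order. Scaling on genes that averaged 500 or more in the controls ended all 3 of them. Against the controls, lpl, the lipoprotein lipase, was 1.24 ± 0.25 higher on the log2 scale with the high dose and vitamin C, a call lost in 4 of 6 fits without 1 library, and no gene of either list passed with vitamin C alone.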

How the data were processed

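The members and gene lists were chosen with earlier results of these data known. The deposited table holds a signal, a normalized read count per gene and library, for 23028 genes. Per the submitters' processing notes, fastp 0.23.2, STAR 2.7.7a and DESeq2 1.34.0 were used by the authors. Build, annotation, counting, strand and the treatment of reads from near-identical or overlapping genes were "not given in the sources used here", so no coordinates are printed and entries sharing a name (fads2, ELOVL6, LSS, HSD17B7), like ACLY and aclya, are uncertain. Values were whole multiples of each library's smallest step, and division gave whole reads for 100% of 345420 values within 0.001. Those steps were the reciprocals of median-of-ratios size factors. Replicates differed by more than sampling noise (chi-square per degree of freedom 3.67 to 158.5).

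limma 3.58.1 with a mean-variance trend (R 4.3.3) was fitted on log2(value + 1), which understates changes of low genes, over 15 libraries and the 17778 genes averaging 10 or more. The call threshold was 0.05 on p adjusted by Benjamini-Hochberg over all of them. Fold changes carry the standard error and group means the SD, with n = 3 libraries a group. One spread is shared by all groups, so errors of the uneven low-dose group can be too small and those of the more even groups too large. Named were a fixed panel, the 12 called members with the smallest adjusted p and up to 4 called genes of each wider list per comparison; further called members were named after their values were seen, and the text leaves out some values of these genes. One member enters the counts and is not reported here by name. edgeR 4.0.16 and DESeq2 1.42.0 on the recovered reads were alternatives. Deviations of same-numbered libraries correlated at 0.361, 0.198 and 0.124 between the high dose with vitamin C and the high dose alone, all above 0.1. The numbers were therefore taken as a possible pairing of these groups. No other pair of groups passed that bound in all 3 replicates, and the labels do not state a pairing. Single correlations between other groups reached -0.197 and 0.193, so the bound cannot tell pairing from noise. The replicate block fitted 1 effect per replicate number across all 5 groups, so it does not test this pairing.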

Additional observations from a re-analysis of the deposited data

Results flagged for a closer look

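The change at the high dose differed with vitamin C, by the interaction test, in 4 genes. fads2 (ENSORLG00000006358) was -1.92 ± 0.31 on the log2 scale (limma adjusted p = 0.00893): 139 ± 24.8 normalized counts with the high dose and vitamin C and 152 ± 12.8 with vitamin C alone, against 556 ± 139 with the high dose and 159 ± 30.5 in the controls. acaca was 1.27 ± 0.32 (limma adjusted p = 0.0301), with 547 ± 30.2 against 591 ± 150 on vitamin C and 396 ± 57.7 against 1029 ± 241 without it. ACLY was 0.85 ± 0.22 (limma adjusted p = 0.0332) and SCAP 1.16 ± 0.31 (limma adjusted p = 0.0344). The calls of acaca, ACLY and SCAP were each lost in 9 of the 12 fits without 1 library. For acaca, ACLY and SCAP, vitamin C alone also gave lower means than the controls, although none of these differences passed. The means were 591 against 1029, 1073 against 1583 and 203 against 271 normalized counts, in that order. The shares of all tested genes called positive and negative here were 5.6% and 2.47%.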

How the results depend on the processing

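Counts of called members by setting were as follows. With only the groups compared in the fit they were 12 for the low dose against control and 7 for high against low dose. The high dose with vitamin C gave 7 against the high dose and 9 against control. Vitamin C alone gave 5 and the interaction 13. Of all 17778 tested genes those fits called 1905 higher and 1345 lower for the low dose, and 895 and 1673 between doses. For the high dose with vitamin C they called 2050 and 1092 against the high dose and 1735 and 1969 against control. For vitamin C alone they called 394 and 277, and for the interaction 2838 and 2217. Compared with the fit over 15 libraries, these counts of all tested genes moved the same way as those of the members. Without low-dose replicates 1 and 2 only 1 low-dose library remained, and the counts of that fit are not given. The changes of FADS6 at the low dose (0.36) and of ldlrap1a between high and low dose (0.031) turned sign there. DESeq2 gave 8, 5, 2 and 8 calls for the high dose with vitamin C against the high dose, the same group against control, vitamin C alone and the interaction. Of all tested genes DESeq2 called 1993 higher and 1732 lower for the first of these, and 1018 and 915 for the second. For the interaction it called 1791 and 1362. Against the high dose, the group with vitamin C had 11 calls with quantile normalization, beside 1727 higher and 906 lower of all tested genes. That group had 2 calls with no filter and 2 with the replicate block. Of all genes in those fits, 1209 were called higher and 442 lower, and 1184 and 404, in that order. Against control that group had 0 with quantile normalization and 1 each with edgeR, a mean of at least 50 and the replicate block. Of all genes in those fits, 235 were called higher and 108 lower, 590 and 200, 141 and 121, and 454 and 226, in that order. That group also had 1 with the scaling on genes that averaged 500 or more in the controls, which was pmvk, higher, and neither of the 2 falls. That scaling called 568 higher and 74 lower of all tested genes. Leaving out 1 library gave 22 to 38 calls for the low dose, 8 to 14 for the high dose and 13 to 38 between doses. It gave 1 to 3 for vitamin C on the high dose and 0 to 3 for that group against control. Vitamin C alone had 0 to 0 and the interaction 1 to 5. Of all tested genes those fits called 3137 to 5667 higher and 2907 to 5254 lower for the low dose. For the high dose they called 2100 to 3330 and 2517 to 3534, and between doses 2551 to 5688 and 3403 to 5878. Vitamin C on the high dose had 391 to 1153 and 151 to 498, and that group against control 44 to 609 and 1 to 528. Vitamin C alone had 6 to 59 and 2 to 25, and the interaction 92 to 1263 and 35 to 577. The replicate block moved no other count by more than 1.5 times; with it acaca in the high dose with vitamin C against control reached a limma adjusted p of 0.0505, fdps at the low dose 0.0554 and hadhab in the interaction 0.0588. Other settings kept each count within 1.5 times. The cause of these shifts was not tested. Fits that drop libraries also have fewer samples, yet without low-dose replicate 3 the count was 38 in both low-dose comparisons, above that of the fit over 15 libraries. Depth limits genes with few reads: elovl8a had 3, 24 and 8 reads at the high dose, where a library held 3.21 to 12.2 M.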
